A study of Mus musculus with 6 samples.

Results

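The genes described here act in the formation of the DNA double-strand breaks that start meiotic recombination, in the choice of their sites or, for *Zcwpw1*, at the marked sites. The 8 genes were taken by gene symbol (*Spo11*, *Mei1*, *Mei4*, *Rec114*, *Ankrd31*, *Prdm9*, *Hells* and *Zcwpw1*) and make up 8 of the 54532 genes in the expression table. RNA-seq was done on STRA8+ germ cells isolated from mouse testes, in 3 control libraries of genotype Cre and 3 libraries of genotype *Srsf1* knockout, a conditional knockout (cKO). STRA8 is a protein of germ cells that differentiate and enter meiosis, and *Srsf1* encodes a splicing factor. The labels give neither the age of the mice, nor the strain, nor the promoter that drives Cre, nor whether testes were pooled. They also do not say that the libraries came from separate animals, so p-values measure only the spread between these samples, which may be technical.

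Meiotic recombination begins when germ cells cut their own DNA in early prophase. SPO11 makes the cut together with its partner TOPOVIBL, on chromosome axes where MEI1, MEI4, REC114, IHO1 and ANKRD31 act. In mice, the histone methyltransferase PRDM9 marks the sites to be cut, HELLS opens the chromatin there, and ZCWPW1 binds the marked sites and acts in the repair of the breaks.

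Between 14447887 and 17310353 fragments per library were counted on genes, and levels are given as FPKM, fragments divided by gene length in kilobases and by a size factor for each library. Values are listed in the order of replicates 1 to 3. The knocked-out gene, *Srsf1*, was measured at 84.7, 45.2 and 51.9 FPKM in control and at 5.08, 4.94 and 5.17 FPKM in cKO cells. The groups were far apart, with a log2 fold change of -3.29 (standard error 0.22, limma adjusted p = 5.6e-05). Control replicate 2 stood apart from the other controls. Its summed level of 10 spermatid markers was 8419 FPKM, against 2562 and 2515 FPKM in control replicates 1 and 3. Of the 8 break genes, 7 had their lowest control value in control replicate 2, and *Rec114* had its highest there. The counts of calls, the fold changes of the 8 genes and their ratios to early prophase genes were therefore also computed without this library. The levels of the marker lists, the order of levels and the likeness to other genes were not.

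Of the 8 genes, 1 (*Rec114*) was called higher and 2 (*Spo11* and *Mei1*) were called lower in cKO cells, at a limma adjusted p of at most 0.05. Of all 15451 genes tested, 11.8% were called higher, 22.2% lower and 34.0% in either direction. The number of genes called higher, 1821, was 1065 without control replicate 1, 1082 without control replicate 3, 1178 without cKO replicate 1 and 965 without cKO replicate 3. With quantile normalization 67.1% of the calls were higher, against 34.6% in the test as designed. The called share of the break genes, 3 of 8, was thus near that of all genes, and the results below are about single genes. Every cKO library lay above every control library for 2 of the 8 genes (*Rec114* and *Hells*), and for 21.8% of all genes tested. Every cKO library lay below every control library for 2 genes (*Spo11* and *Mei1*), and for 28.6% of all genes tested. The median log2 fold change was 0.08 over the 8 genes and -0.01 over all genes tested. The summed level of the 8 genes was 340.3, 265 and 338 FPKM in control and 310.3, 356 and 291 FPKM in cKO cells. These sums overlapped. In such bulk samples, fewer cells of a type and less RNA per cell cannot be told apart.

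**Figure D1:**
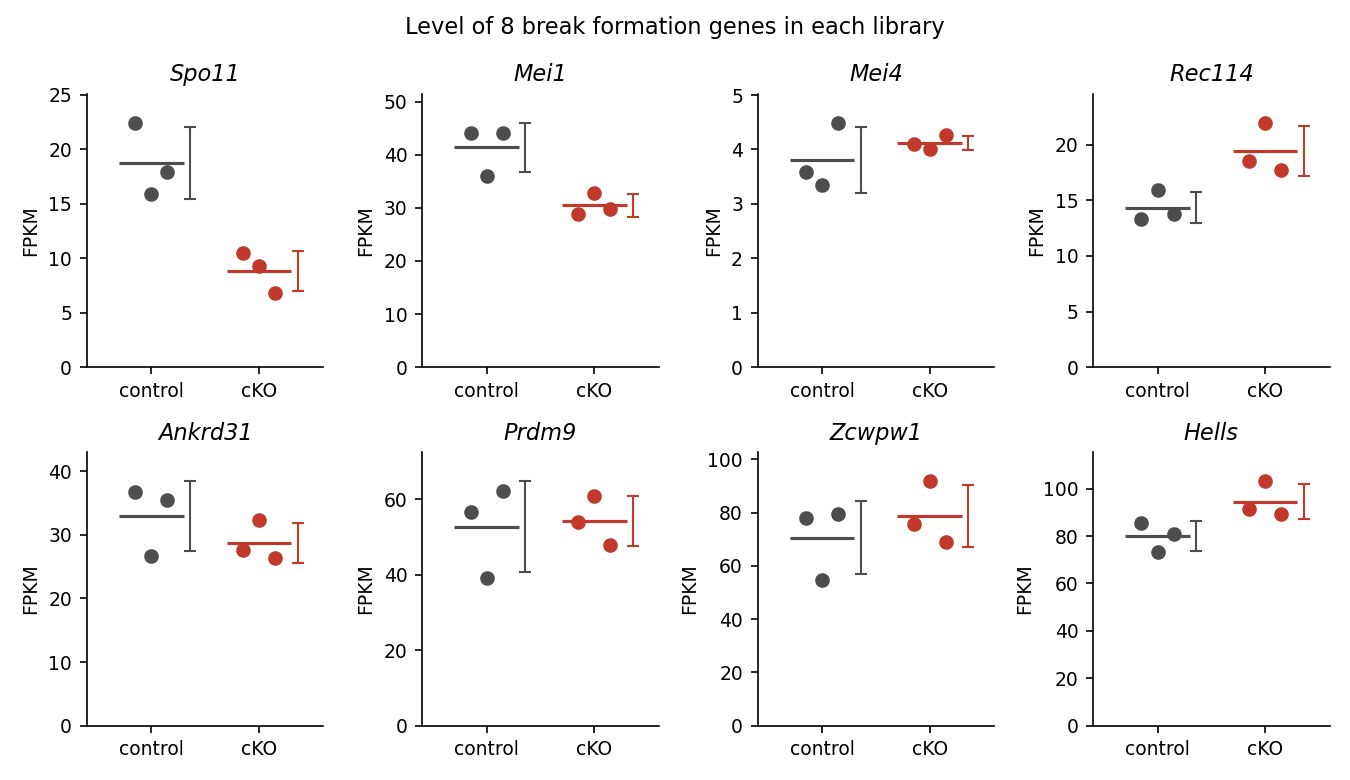
Level of the 8 break formation genes in FPKM (vertical axes, each starting at 0) in the 3 control libraries (grey) and the 3 cKO libraries (red). Points are libraries, horizontal lines are group means and bars are the SD; the groups do not overlap for *Spo11*, *Mei1*, *Rec114* and *Hells*.

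*Spo11* encodes the enzyme that cuts the DNA, and it had the lowest log2 fold change of the 8 genes. It had 22.4, 15.9 and 17.9 FPKM in control and 10.5, 9.27 and 6.85 FPKM in cKO cells. The highest cKO library was below the lowest control library. The mean was 18.7 ± 3.33 FPKM (SD, n = 3) in control and 8.85 ± 1.84 FPKM (SD, n = 3) in cKO cells, so 47.2% of the control mean was left. The log2 fold change was -1.01 (95% interval -1.42 to -0.59, standard error 0.18, limma adjusted p = 0.0050), and 12.9% of the genes tested had a lower one. The values rest on 957 to 1448 fragments per control library and 408 to 644 per cKO library. Without control replicate 2, the log2 fold change of *Spo11* was -1.11 (limma adjusted p = 0.0071). *Top6bl* and *Hormad1*, 2 other genes of break formation, were not called, while *Mei1* and *Rec114* (below) were. *Top6bl*, which encodes the partner TOPOVIBL, had 26.3, 19.1 and 29.0 FPKM in control and 25.2, 30.0 and 24.0 FPKM in cKO cells. These groups overlapped, with a log2 fold change of 0.10 (95% interval -0.29 to 0.49, limma adjusted p = 0.67). *Hormad1*, which encodes an axis protein that promotes break formation, had 164, 121 and 140 FPKM in control and 137, 192 and 147 FPKM in cKO cells. These groups overlapped too. *Hormad1* had a log2 fold change of 0.16 (95% interval -0.22 to 0.53).

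The *Spo11* gene (ENSMUSG00000005883) spans bases 172977700 to 172993576 of mouse chromosome 2 (GRCm38, plus strand). In the GENCODE annotation it has 5 transcripts, of which 3 are protein-coding and encode 396, 371 and 358 residues. The longest form has 13 exons. Its exon 2, at chr2:172981979-172982092 on the plus strand, is absent from the other protein-coding transcripts. The exon is 114 bases long, the length of 38 codons, and lies within the coding sequence. The proteins with and without this exon are known as SPO11-beta and SPO11-alpha. The table gives 1 value per gene, so the FPKM of *Spo11* sum over these forms and their shares were not measured. The forms of 371 and 358 residues both lack it and differ in the length of exon 4 (148 and 109 bases). The exon is shown because it sets the longest form apart from these.
Spo11 exon 2: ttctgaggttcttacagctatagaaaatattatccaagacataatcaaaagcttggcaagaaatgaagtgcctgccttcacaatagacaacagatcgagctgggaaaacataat

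MEI1, MEI4, REC114 and ANKRD31 act on chromosome axes and are needed for normal break formation. *Mei1* had 44.0, 36.1 and 44.1 FPKM in control and 28.8, 32.9 and 29.7 FPKM in cKO cells. Every cKO library was below every control library, with cKO replicate 2 and control replicate 2 closest to each other. *Mei1* fell by 0.43 on the log2 scale (95% interval -0.67 to -0.19, limma adjusted p = 0.017), and 73.6% of its control mean was left. Without control replicate 2 the log2 fold change was -0.52 (limma adjusted p = 0.0053). The call of *Mei1* was lost without control replicate 1 (limma adjusted p = 0.062), control replicate 3 (0.064), cKO replicate 1 (0.060) or cKO replicate 3 (0.064), with log2 fold changes from -0.41 to -0.38.

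*Rec114* moved the other way. It had 13.4, 15.9 and 13.8 FPKM in control and 18.6, 22.0 and 17.7 FPKM in cKO cells. All cKO libraries were above all control libraries. The log2 fold change was 0.41 (95% interval 0.15 to 0.67, limma adjusted p = 0.026), or 1.35 times the control mean, from 281 to 411 fragments per library. The call of *Rec114* was lost without control replicate 1 (limma adjusted p = 0.086), control replicate 3 (0.085), cKO replicate 1 (0.057) or cKO replicate 2 (0.066), with log2 fold changes from 0.32 to 0.44. It stayed without control replicate 2 (0.020). *Rec114* (chromosome 9, 58652850 to 58743964, minus strand, GRCm38) shares exon sequence with *Nptn*, a gene on the opposite strand that encodes an adhesion molecule. The shared part is 344 bases, or 26.9% of the exon sequence of *Rec114*. *Nptn* had 11.8 to 12.7 FPKM in the control libraries and 14.3 to 15.5 FPKM in the cKO libraries, and was called higher as well (log2 fold change 0.27, limma adjusted p = 0.031). The sources do not say that counting used the strand, so fragments of *Rec114* and *Nptn* cannot be told apart in that stretch. *Nptn* was looked up after the value of *Rec114* had been seen.

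Neither *Mei4* nor *Ankrd31* was called in the test as designed. *Mei4* was the least abundant of the 8 genes, with 3.59, 3.34 and 4.49 FPKM in control and 4.09, 4.01 and 4.26 FPKM in cKO cells. The cKO libraries lay within the control range, and the log2 fold change was 0.10 (95% interval -0.19 to 0.39, limma adjusted p = 0.57). It was 0.03 without control replicate 2 and 0.20 without control replicate 3, with no call. With quantile normalization *Mei4* was called higher (log2 fold change 0.41, limma adjusted p = 0.040), where all genes had a median of 0.21. *Ankrd31*, whose protein binds REC114 and is needed for breaks where the X and Y chromosomes pair, had 36.8, 26.7 and 35.4 FPKM in control. It had 27.6, 32.3 and 26.3 FPKM in cKO cells, which overlapped with control replicate 2 alone. Its log2 fold change was -0.18 (95% interval -0.51 to 0.14, limma adjusted p = 0.34) with all libraries and -0.32 (limma adjusted p = 0.058) without control replicate 2. *Iho1*, which encodes a binding partner of HORMAD1 on unsynapsed axes, had 58.4, 48.1 and 60.1 FPKM in control and 48.2, 58.1 and 46.2 FPKM in cKO cells. Its groups overlapped and it was not called (log2 fold change -0.13, limma adjusted p = 0.46).

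The genes that choose the sites gave no call in the test. *Prdm9* had 56.6, 39.2 and 62.3 FPKM in control and 53.8, 60.9 and 47.9 FPKM in cKO cells. The cKO libraries lay within the control range, with control replicate 2 lowest of all libraries. The log2 fold change of *Prdm9* was 0.06 (95% interval -0.36 to 0.48, limma adjusted p = 0.82) and was -0.14 (limma adjusted p = 0.41) without control replicate 2. It was -0.03 without cKO replicate 2. The interval covers changes in either direction, and a p that misses the threshold does not show that the levels did not differ.

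*Hells*, which encodes the chromatin remodeler that acts with PRDM9, had the highest mean FPKM of the 8 genes, with control values that overlapped those of *Zcwpw1*. Per length of the coding transcript *Zcwpw1* was higher. *Hells* had 85.6, 73.4 and 81.0 FPKM in control and 91.3, 103 and 89.3 FPKM in cKO cells. All cKO libraries were above all control libraries, yet *Hells* did not pass the test as designed (log2 fold change 0.24, 95% interval 0.03 to 0.45, limma adjusted p = 0.079). It passed with FPKM recomputed from fragment totals (limma adjusted p = 0.024), with limma-voom on fragments (0.019) and with quantile normalization (0.016). Without control replicate 2 the log2 fold change of *Hells* was 0.18 (limma adjusted p = 0.17). Over all alternatives its limma adjusted p ran from 0.016 to 0.19.

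*Zcwpw1*, whose protein reads the histone marks that PRDM9 writes, had 77.9, 54.7 and 79.3 FPKM in control and 75.7, 91.8 and 69.0 FPKM in cKO cells. The highest value was in cKO replicate 2 and the lowest in control replicate 2, and the groups overlapped. Its log2 fold change was 0.16 (95% interval -0.24 to 0.57, limma adjusted p = 0.49), and -0.01 without control replicate 2. The exons of *Zcwpw1* share 468 bases with *Pilra* on the opposite strand, which had at most 0.398 FPKM in any library.

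Among 14 other genes of break formation, break control and end processing, 2 were called higher and 1 lower, against 34.0% of all genes tested called in either direction. Over the 14 genes the log2 fold changes had a median of 0.02. *Atm*, which encodes the kinase that limits the number of breaks, had 34.8, 28.8 and 36.3 FPKM in control and 50.8, 57.5 and 44.3 FPKM in cKO cells. The groups did not overlap, and *Atm* rose by 0.60 on the log2 scale (limma adjusted p = 0.010). *Cdca7*, which encodes an activator of HELLS, had 29.7, 36.3 and 30.4 FPKM in control and 48.9, 45.0 and 50.6 FPKM in cKO cells. These groups did not overlap either (log2 fold change 0.57, limma adjusted p = 0.0041). *Cxxc1*, which encodes a protein that binds PRDM9, had 93.6, 85.0 and 89.8 FPKM in control and 72.4, 61.8 and 59.5 FPKM in cKO cells. All of its cKO libraries were lower (log2 fold change -0.47, limma adjusted p = 0.0077). The calls of these 3 genes were kept when any 1 of the 6 libraries was left out. *Ewsr1*, which encodes an RNA-binding protein that binds PRDM9, had 102, 94.5 and 95.3 FPKM in control and 113, 105 and 105 FPKM in cKO cells. All its cKO libraries were above all controls, but it was not called in the test as designed (log2 fold change 0.15, limma adjusted p = 0.13). With quantile normalization *Ewsr1* was called higher, and 4 of the 14 genes were then called. *Zcwpw2* overlapped between the groups (log2 fold change 0.00, limma adjusted p = 1.00). The 6 end processing genes (*Mre11a*, *Rad50*, *Nbn*, *Rbbp8*, *Exo1* and *Dna2*), which trim the cut DNA ends, gave 0 calls by limma. Their log2 fold changes ran from -0.21 in *Mre11a* to 0.09 in *Nbn*, the groups overlapped for all 6, and the smallest unadjusted p was 0.091, in *Rad50*. With limma-voom, too, 0 of the 6 were called.

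**Figure D2:**
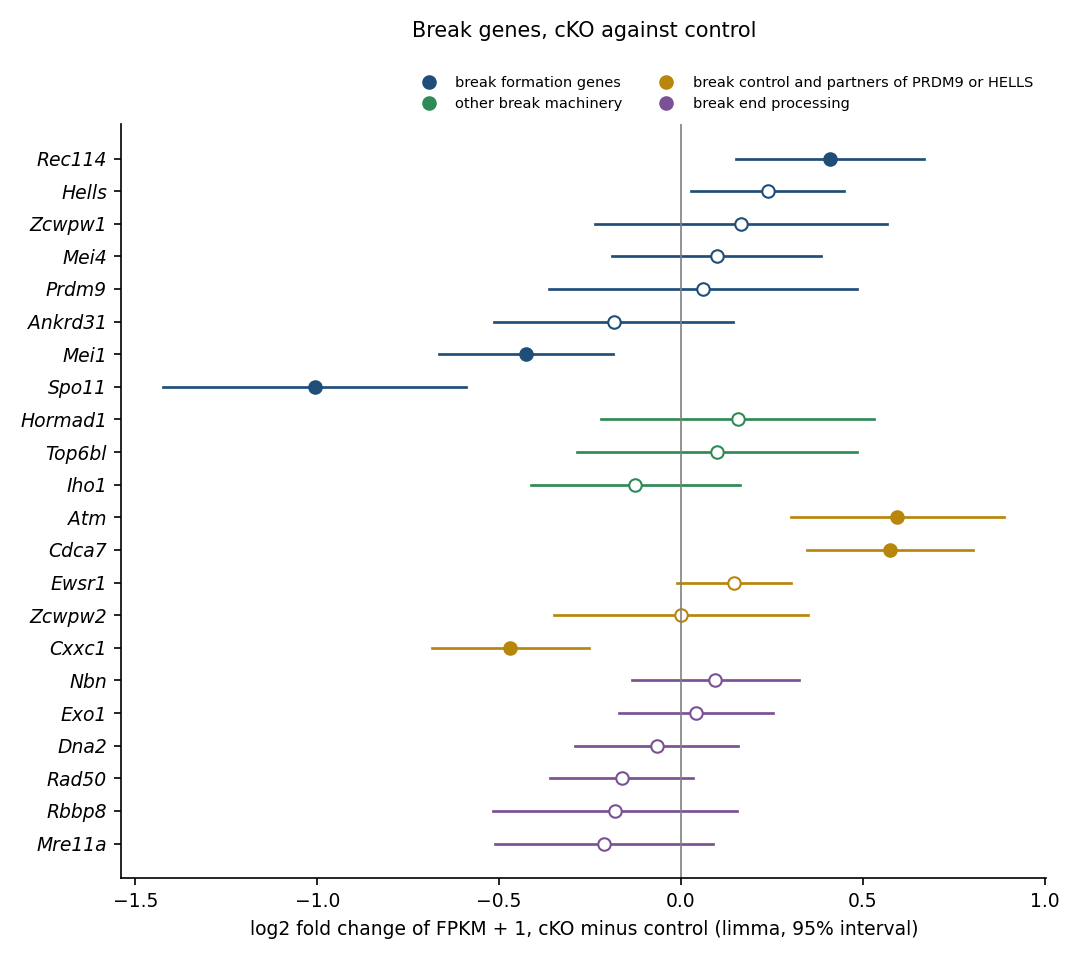
Log2 fold change of FPKM + 1, cKO minus control (horizontal axis), of the 8 break formation genes and 14 related genes in 3 lists, marked by colour. Lines are 95% intervals from limma; filled points were called at an adjusted p of at most 0.05, which are *Spo11*, *Mei1*, *Rec114*, *Atm*, *Cdca7* and *Cxxc1*.

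In control cells the order of mean levels per kilobase of gene length was *Hells* (80.0 FPKM), *Zcwpw1* (70.7), *Prdm9* (52.7), *Mei1* (41.4), *Ankrd31* (33.0), *Spo11* (18.7), *Rec114* (14.4) and *Mei4* (3.81). Neighbours in this order overlapped between libraries, except *Ankrd31* with *Spo11* and *Rec114* with *Mei4*. In cKO cells *Rec114* (19.4 FPKM) stood above *Spo11* (8.85 FPKM), and the ranges of these genes did not overlap. The gene length in the table is the union of all annotated exons, which for *Spo11* is 3921 bases, while its longest protein-coding transcript has 1709. Levels of different genes therefore depend on this length, and differences between groups within a gene do not.

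The levels were also set against those of 10 other genes of leptotene and zygotene spermatocytes, the stage at which breaks form (*Sycp1*, *Sycp2*, *Sycp3*, *Syce2*, *Dmc1*, *Meiob*, *Rad21l*, *Stag3*, *Smc1b* and *Meioc*). These summed to 1542, 1139 and 1422 FPKM in control, and to 1205, 1507 and 1133 FPKM in cKO cells. The sums overlapped, *Sycp3* was the most abundant, none was at 0, and 1 of the 10 (*Syce2*) was called, lower. Over the 10 genes the log2 fold changes ran from -0.35 to 0.36, with a median of -0.22. The mean sum in cKO cells was 93.7% of that in control, and a lower list raises the ratios to it. Per 1000 FPKM of this list, *Spo11* had 14.5, 14.0 and 12.6 FPKM in control and 8.67, 6.15 and 6.04 FPKM in cKO cells. Every cKO library was again below every control library, with a cKO mean of 0.508 times the control mean for *Spo11*. *Mei1* was also lower in every cKO library, with 28.5, 31.7 and 31.0 FPKM in control and 23.9, 21.8 and 26.2 FPKM in cKO cells per 1000 FPKM of the list. With the median of the ratios to each gene of the list in place of its sum, the groups overlapped for *Mei1*. *Rec114* had 8.66, 14.0 and 9.68 FPKM in control and 15.4, 14.6 and 15.6 FPKM in cKO cells per 1000 FPKM of the summed list. In control replicate 2, *Rec114* was thus close to the cKO libraries. Of the genes with no call, *Hells* and *Zcwpw1* had higher ratios in every cKO library than in any control library (1.26 and 1.20 times the control mean), and *Ankrd31* had lower ones (0.935 times). The ratios of *Prdm9* and *Mei4* overlapped between the groups. With the median of ratios, *Ankrd31* stood at 1.03 times control and its groups overlapped, while every cKO library was above every control library for *Prdm9* (1.22 times). The order of the groups for *Mei1*, *Ankrd31* and *Prdm9* thus depended on how the list was summarized. The share of all genes with separate groups was not computed for these ratios. These ratios are descriptions, with no test.

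Markers of later germ cells moved with the genotype. All 10 spermatid markers and 9 of 10 pachytene markers were called lower, and the pachytene markers summed to 823, 886 and 714 FPKM in control and 135, 118 and 118 FPKM in cKO cells. Spermatid markers summed to 11.7, 12.2 and 9.92 FPKM in cKO cells, with *Tnp2* the most abundant over all libraries. *Pgk2* and *Adam3* were at 0 in cKO replicates 1 and 2. The part of these later cells in the levels of the 8 break genes was not tested. The sums of earlier markers overlapped between the groups. The 8 differentiating markers summed to 644, 603 and 614 FPKM in control and 611, 696 and 660.3 FPKM in cKO cells. *Stra8* was the most abundant of them, and 1 of 8 (*Dmrtb1*) was called, lower (log2 fold change -1.35). The 8 markers of undifferentiated spermatogonia, with *Lin28a* the most abundant, summed to 55.5, 68.2 and 65.3 FPKM in control and 63.5, 59.3 and 68.4 FPKM in cKO cells. Of these, *Ret* was called higher (log2 fold change 0.57) and *Id4* lower (-1.30).

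The summed levels of somatic marker lists overlapped between the groups, apart from the peritubular list. The 7 Sertoli markers summed to 72.1, 57.4 and 86.2 FPKM in control and 119, 48.3 and 66.0 FPKM in cKO cells, with *Clu* the most abundant and *Rhox5* the only gene called, higher. The 6 Leydig markers summed to 5.45, 14.0 and 2.96 FPKM in control and 10.2, 6.34 and 10.7 FPKM in cKO cells, with *Insl3* the most abundant. In this list 1 gene had all cKO libraries above all controls, and it was not called. *Lhcgr* was at 0 in 3 of the 6 libraries and *Insl3* in 1. The 3 peritubular markers, led by *Tagln*, summed to 3.22, 5.69 and 3.48 FPKM in control and 6.93, 6.31 and 6.62 FPKM in cKO cells. The 8 markers of macrophages, blood and endothelium, led by *Cd68*, summed to at most 9.25 FPKM in any library, with *Hbb-bs* at 0 in 3 libraries and *Hba-a1* in 1. Of the 17 genes in these last 3 lists, 6 passed the filter and 0 were called by limma. The part of somatic RNA in the levels of the break genes was not tested.

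**Figure D3:**
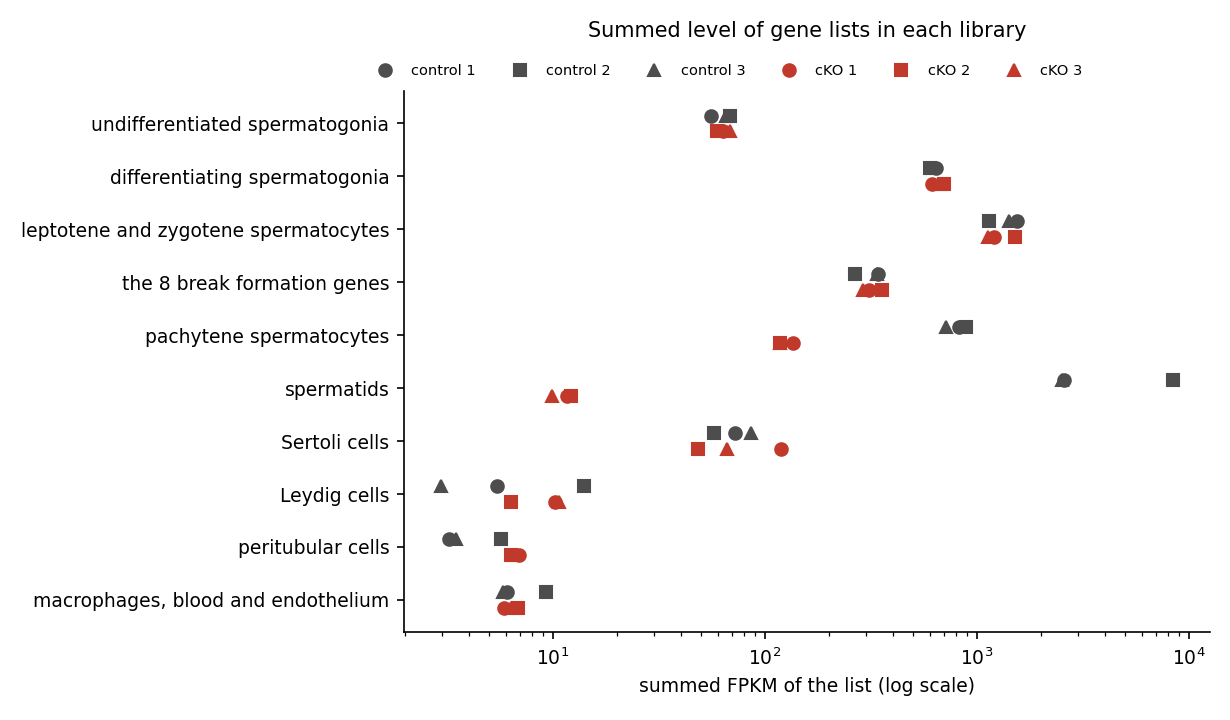
Summed FPKM (horizontal log axis) of the 8 break formation genes and of each marker list in the 3 control (grey) and 3 cKO (red) libraries, with a symbol for each replicate number. The break genes and the leptotene and zygotene list overlap between groups, while pachytene and spermatid lists are lower in all 3 cKO libraries.

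Other genes shared the pattern of *Spo11* across the 6 libraries. Among 12319 other protein-coding genes tested, those with the highest Pearson r of log2 levels were *Pdss2* (r = 0.998), *Hnrnph3* (0.997), *4933430I17Rik* (0.996), *Sharpin* (0.996) and *Ankrd40* (0.996). An r of at least 0.95 was reached by 364 genes. Pearson r takes no account of the size of a change. *Pdss2* was not called (log2 fold change -0.29, limma adjusted p = 0.082). The others named were called lower, with log2 fold changes from -0.62 to -0.42, against -1.01 for *Spo11*. As the groups do not overlap for *Spo11*, this likeness holds the difference between the genotypes, and it is a description over 6 libraries. *Hnrnph3*, which encodes an RNA-binding protein, had 66.4, 52.7 and 56.1 FPKM in control and 41.8, 39.8 and 34.3 FPKM in cKO cells. For *Prdm9* the genes were *Apcdd1* (r = 0.990), *Arfgef1* (0.988), *Gm10269* (0.987), *Cep192* (0.987) and *D630044L22Rik* (0.986), and 29 genes reached an r of at least 0.95. None of these 5 was called between the groups, and like *Prdm9* they were lowest in control replicate 2.

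Promoters from RefSeq (GRCm38.p6, windows of 300 bases around the start of a RefSeq transcript) were matched by symbol for 7 of the 8 genes, with 9 windows in all, and the gene without an entry was *Spo11*. They were searched on both strands for CNCCTCAG, the motif bound by STRA8, for the E-box CACGTG and for GCGGGAA, a motif of E2F factors. Of all 32851 promoters, 7.94% hold the STRA8 motif, 7.15% the E-box and 4.60% the E2F motif. The E2F motif was in 3 of the 9 windows (*Rec114*, *Hells* and 1 of 2 windows of *Prdm9*), the E-box in 1 (*Rec114*) and the STRA8 motif in 1 (the same window of *Prdm9*, with 2 matches). No match was found in the windows of *Mei1*, *Mei4*, *Ankrd31* and *Zcwpw1*. The windows with a match are shown because they include *Rec114* and *Hells*, for which all cKO libraries were above all control libraries, and *Prdm9*, for which they were not. Capitals mark the matches, and in *Prdm9* an E2F match and a STRA8 match share 1 base. The windows of *Rec114* and *Mei1*, and the window of *Prdm9* without a match, lie inside the genes as annotated in the expression table, downstream of the gene starts there. The *Rec114* window is chr9:58741510-58741809 on the minus strand, with CACGTG from base 232 and GCGGGAA from base 277. The *Hells* window is chr19:38930740-38931039 on the plus strand, with a match from base 190. The *Prdm9* window is chr17:15564305-15564604 on the minus strand, with matches from bases 204, 210 and 265. A match is no evidence of binding, and a link between matches and levels was not tested.
Rec114 promoter: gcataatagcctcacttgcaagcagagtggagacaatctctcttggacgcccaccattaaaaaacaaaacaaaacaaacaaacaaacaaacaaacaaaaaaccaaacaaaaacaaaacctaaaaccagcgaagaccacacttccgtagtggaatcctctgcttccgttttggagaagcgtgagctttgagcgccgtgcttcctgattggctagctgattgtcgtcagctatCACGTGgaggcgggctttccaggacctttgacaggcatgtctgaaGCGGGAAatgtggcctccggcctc
Hells promoter: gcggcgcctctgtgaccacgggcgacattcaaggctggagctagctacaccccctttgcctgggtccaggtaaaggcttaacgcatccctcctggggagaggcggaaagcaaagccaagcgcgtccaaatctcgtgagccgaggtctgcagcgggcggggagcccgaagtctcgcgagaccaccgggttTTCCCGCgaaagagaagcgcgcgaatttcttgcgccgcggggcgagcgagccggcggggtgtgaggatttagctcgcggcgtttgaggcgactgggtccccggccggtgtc
Prdm9 promoter: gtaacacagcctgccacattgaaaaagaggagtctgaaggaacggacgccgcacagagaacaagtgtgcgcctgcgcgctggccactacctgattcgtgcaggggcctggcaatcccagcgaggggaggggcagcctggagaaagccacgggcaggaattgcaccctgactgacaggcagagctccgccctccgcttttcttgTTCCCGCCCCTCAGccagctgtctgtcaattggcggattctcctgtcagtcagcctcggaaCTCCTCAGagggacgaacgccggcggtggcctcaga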

How the data were processed

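Levels were taken from a table of FPKM that the authors deposited, with 1 column for each of the 6 libraries and the gene length. The submitters' processing notes name HISAT2 2.0.5 and mm10. FPKM times gene length gave whole fragments (within 0.1) for 100% of values above 0. The denominator in each library equalled its median of ratios size factor times the geometric mean of the fragment totals, so the deposited values already carry that scaling.

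Testing was two-sided, for genes averaging 1 FPKM or more over the 6 libraries, on log2(FPKM + 1) with limma 3.58.1 in R 4.3.3 (eBayes with trend, Benjamini-Hochberg adjustment over all genes tested, threshold 0.05). Fold changes on this scale understate changes of low genes. An exact permutation test of 3 against 3 libraries cannot go below p = 0.1 and was not used. The 16 alternatives varied the pseudocount, filter, scaling, variance trend, replicate block, method, fold threshold and libraries included. The computation was tested on simulated data. Its pass mark was loosened after a set pass mark on smaller changes was narrowly missed, so that larger changes and false calls alone decide it. Small changes can be missed, and so can changes of about the size measured for *Spo11*.

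The 8 genes and the lists were chosen with earlier results of these data known. Named genes were the 8 genes, *Srsf1*, 3 lists of break genes, at most those markers that were called, most abundant or at 0, and the 5 genes most like *Spo11* and *Prdm9*. Outside this rule, the early prophase list is named as the reference of the ratios, and *Nptn* and *Pilra* for the exon sequence they share. The 100-base windows of *Rec114* and *Zcwpw1* transcripts occurred in no other gene for 87.3% and 93.5%, and for 100% in the other 6 genes.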

Additional observations from a re-analysis of the deposited data

How the results depend on the processing

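*Spo11* was called lower under all 16 alternatives (log2 fold change from -1.12 to -0.82) and *Srsf1* likewise (-3.50 to -3.03). With 1 library left out at a time, *Mei1* ran from -0.52 to -0.38 and *Rec114* from 0.32 to 0.48, each called in 2 of 6 cases. *Prdm9* ran from -0.14 to 0.19 and *Zcwpw1* from -0.0065 to 0.26, with no call. From 0 to 1 of the 8 genes were then called higher and from 1 to 2 lower, and 965 to 1752 of all genes were called higher, against 1821 with all libraries. Fewer samples enter these fits.

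Same-numbered libraries did not deviate together (Pearson r across genes of 0.00, -0.11 and 0.02), so the numbers were not taken as pairs. Only control replicate 3 correlated best with its own number in the other group. With the replicate block, 891 genes were called higher and 2870 lower. Of the 8 genes 1 was then called lower, since *Mei1* (-0.43) had an adjusted p of 0.065.

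After quantile normalization all genes had a median fold change of 0.21 (log2), with 5164 genes higher and 2527 lower (67.1% of calls higher, against 34.6%). Of the 8 genes, 3 were then called higher, with *Mei4* at 0.41 and *Hells* at 0.32. Relative to that median, these were 0.20 and 0.11, and *Prdm9* was at -0.06. *Hells* was also called at 0.29 with recomputed FPKM and at 0.29 with limma-voom (2 of the 8 genes higher in each). With a minimum absolute log2 fold change of 1, 177 genes were higher and 1939 lower. *Spo11* then made up the 1 gene of 8 called lower, with 0 higher and 0 of the 14 related genes called, as *Mei1* (-0.43) and *Rec114* (0.41) are under that size. With a mean of at least 5 FPKM, 1950 genes were lower, among fewer genes tested, and *Mei4* had no test. Another median of ratios scaling left the levels in proportion. With the median of ratios to each early prophase gene, *Ankrd31* stood at 1.03 and *Zcwpw1* at 1.31 times control. *Mei4* had 211 to 320 fragments per library.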

Other observations

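The level of a gene in the table is divided by the union of all its annotated exons. Divided instead by the length of the transcript with the longest coding sequence, the mean control levels, on the scale of the deposited values, were 181 for *Zcwpw1*, 98.2 for *Hells*, 65.6 for *Prdm9*, 47.5 for *Mei1*, 43.0 for *Spo11*, 34.9 for *Ankrd31*, 20.8 for *Rec114* and 5.88 for *Mei4*, in fragments per kilobase. *Spo11* then stood above *Ankrd31*, and *Zcwpw1* above *Hells*. The control ranges of *Spo11* (36.5 to 51.4) and *Ankrd31* (28.3 to 39.0) overlapped. Those of *Zcwpw1* (140 to 203) and *Hells* (90.2 to 105) did not. All fragments of a gene enter this scale, while the transcript holds 43.6% of the exon sequence of *Spo11* and 39.0% of that of *Zcwpw1*. In cKO cells *Spo11* had 20.3 on this scale and *Rec114* 28.1. This scale was chosen after the levels had been seen. It moves no ratio of mean levels between the groups, and the tests were not run on it.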
